A study of Arabidopsis thaliana with 14 samples.

Results

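The second hour of high-light triggering was resolved by 4 of the 14 RNA-seq libraries of the series. P120L and P60L were made from cold-primed Arabidopsis thaliana rosettes after 120 and 60 min of high light, and C120L and C60L from control rosettes at the same times. The step of a gene is log2 of its transcript level at 120 min over that at 60 min. It was taken once within primed plants (P120L/P60L) and once within control plants (C120L/C60L), and the difference of steps is the primed step minus the control step. Levels are FPKM, fragments scaled to transcript length and to the mapped fragments of a library. The filter was a mean level of 2 FPKM or more across all 14 libraries, which 15074 of the 27861 listed genes passed.

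All plants were wild type, ecotype Col-0, grown in soil for 28 days at 20 °C with a 10 h light period at 100 to 110 µmol quanta m-2 s-1. Primed plants (P) then spent 24 h at 4 °C in the same light and returned to 20 °C for a lag phase of 5 days, whereas control plants (C) stayed at 20 °C. For high-light triggering both were moved to 800 µmol quanta m-2 s-1, with the heat of the lamps filtered out and the air at 20 °C, and harvested after 30, 60 or 120 min. Each library pooled entire rosettes of at least 5 plants and is the only library of its condition. No test and no error over plants could therefore be computed, and "rose" and "fell" stand for ratios past 1.5-fold (0.58 on the log2 scale). In pooled rosettes, fewer cells of a type and less RNA per cell cannot be told apart. Untriggered plants were sampled at the start alone, so time of day and time in high light cannot be told apart within the step.

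High light drives photosynthesis beyond its capacity, and plants answer within minutes with transcripts of heat shock factors and chaperones, which refold or disaggregate damaged proteins. Early transcription factors and touch-responsive calcium sensors are typically induced fast and transiently. Slower programmes follow, among them anthocyanin synthesis, jasmonate-dependent defence and cold-regulated (COR) genes. Jasmonate acts through the receptor COI1, which removes JAZ repressors from MYC transcription factors. CBF factors bind the CRT/DRE element of COR promoters, and clock genes cycle with the time of day.

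Depth differed moderately between libraries. From the step between the smallest FPKM values of weak genes, P120L, P60L and C120L held 0.901, 0.922 and 0.787 of the depth of C60L, within a range of 0.717 to 1.12 over the 14 libraries. None of the 8 reference genes of the study changed in either step or in the difference. Rosette mesophyll markers such as RBCS1A and LHCB1.3 were abundant and none of the 6 changed, whereas none of 7 flower markers reached the filter. Of 6 measured phloem markers, 1 rose in primed and 1 fell in control plants, and 3 had a higher difference of steps. The summed level of all 8 phloem markers, those under the filter included, was 116 FPKM in P120L and 96.7 in P60L, against 99.6 in C120L and 131 in C60L. C120L stood apart most often: it was the highest of all libraries by 1.5-fold for 167 genes, against 14 in P120L, 12 in P60L and 55 in C60L.

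Primed plants changed fewer transcripts than control plants between 60 and 120 min. In primed plants 1134 genes rose (7.53% of those with a ratio) and 966 fell (6.41%). In control plants 1314 rose (8.72%) and 1837 fell (12.2%). The primed steps had an SD over genes of 0.480, against 0.589 for the control steps. Pearson's r of the 2 steps was 0.683 and Spearman's rho 0.544 across 15063 genes, which are not independent replicates. The line of primed on control steps had a slope of 0.557. Error in the control steps lowers such a slope, so it does not show which group changed more. For scale, the ratio of P0 to C0 before triggering had an SD of 0.254 over genes. The counts depend on the scaling of the libraries. With each library divided by its median ratio to all libraries (median-of-ratios), 783 genes rose and 1209 fell in primed plants, and 1406 rose and 1710 fell in control plants.

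The same direction in both groups was frequent. Both steps rose for 568 genes, which were 50.1% of the primed and 43.2% of the control calls. Both fell for 728 genes, 75.4% of the primed and 39.6% of the control calls. Primed plants alone, with the difference itself past 1.5-fold, showed 202 rises and 84 falls, and control plants alone 309 rises and 646 falls. The direction was opposite for 19 genes that rose in primed and fell in control plants and for 23 that did the reverse. Neither step was called for 11160 genes.

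**Figure D1:**
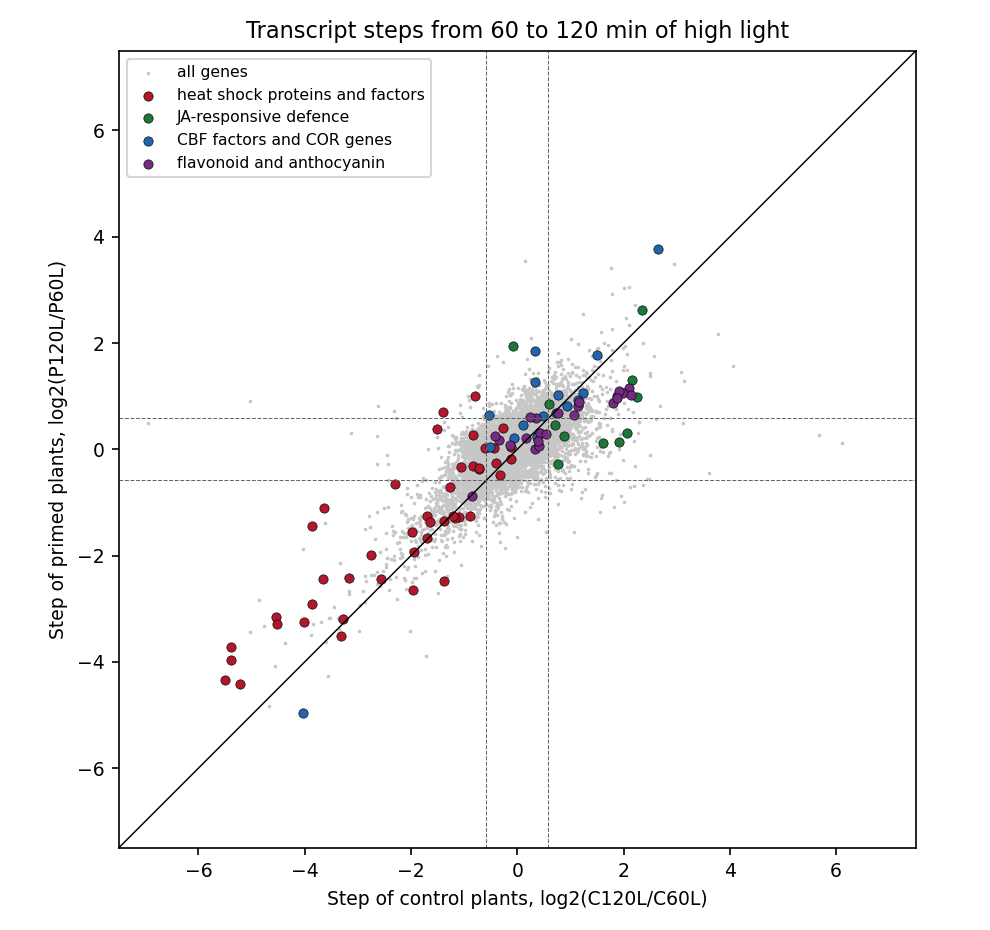
Primed step (y axis, log2 of P120L/P60L) against control step (x axis, log2 of C120L/C60L), 1 point per gene; grey points are all genes, coloured points heat, jasmonate-defence, CBF/COR and flavonoid genes, the solid line marks equal steps and the dashed lines 1.5-fold. Most heat genes lie at the lower left, above the line of equal steps, and most jasmonate-defence genes at the right, below it.

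The difference of steps was higher in primed plants for 1529 genes (10.2%) and lower for 602 (4.0%), with a median over all genes of 0.11. Its SD over genes was 0.437. It combines 4 single libraries, more than the P0 to C0 ratio given above for scale (SD of 0.254). Here too the scaling decided the balance. Of the called differences 71.8% were higher as deposited and 49.8% after median-of-ratios scaling (927 higher and 936 lower), which moved the median of all genes by -0.12. Scaling to the reference genes gave 1460 and 624. Differences of single genes and lists are therefore read below against the median of 0.11. Counts of list members are to be read against the shares of all genes. These were 7.53% rises and 6.41% falls in primed plants, 8.72% and 12.2% in control plants, and 10.2% higher and 4.0% lower differences. P60L/C60L was past 1.5-fold for 285 genes upwards (1.89%) and 683 downwards (4.53%), and P120L/C120L for 382 upwards (2.53%) and 629 downwards (4.17%). These ratios share their libraries with the steps and only show at which time primed and control plants lay apart. Among the genes with a higher difference, 315 were apart at 60 min alone, 226 at 120 min alone, 27 at both times and 961 at neither. Among those with a lower difference, 125 were apart at 60 min alone, 290 at 120 min alone, 26 at both and 161 at neither. C120L was the highest library by 1.5-fold for 128 of these 602 genes.

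Heat shock genes were prominent among the largest falls, and 21 of them kept a higher level relative to 60 min in primed plants. Of 46 measured members of 3 lists (small heat shock proteins, large chaperones, and heat shock factors with co-regulators), 30 fell in both groups, 30 fell in primed and 39 in control plants, and 21 had a higher and 2 a lower difference of steps. The median step was -1.28 in primed and -1.57 in control plants, against medians of all genes of 0.09 and -0.02. At 120 min 27 of the 46 were at least 1.5-fold higher in primed than in control plants and 1 was lower, and at 60 min these numbers were 13 and 1.

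The heat shock factors bind repeats of GAA and TTC, the heat shock element. The 250 bases before the annotated starts of 3 heat genes are shown because these genes carry matches and their steps differ: HSFA7A fell most in primed plants, HSFA2 is the heat-inducible factor with the highest level at 30 min, and HSP17.4, a small heat shock protein, kept its level. Coordinates and letters are those of RefSeq TAIR10.1, read 5′ to 3′ on the gene's strand: HSFA2 at chr2:11135374-11135623 (plus), HSFA7A at chr3:19264891-19265140 (plus) and HSP17.4 at chr3:16984868-16985117 (minus). Capitals mark GAANNTTC.
HSFA2: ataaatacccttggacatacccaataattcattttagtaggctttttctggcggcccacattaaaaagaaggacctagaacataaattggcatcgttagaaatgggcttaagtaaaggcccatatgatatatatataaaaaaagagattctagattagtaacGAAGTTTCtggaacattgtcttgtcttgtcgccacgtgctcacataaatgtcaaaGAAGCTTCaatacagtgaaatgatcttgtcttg
HSFA7A: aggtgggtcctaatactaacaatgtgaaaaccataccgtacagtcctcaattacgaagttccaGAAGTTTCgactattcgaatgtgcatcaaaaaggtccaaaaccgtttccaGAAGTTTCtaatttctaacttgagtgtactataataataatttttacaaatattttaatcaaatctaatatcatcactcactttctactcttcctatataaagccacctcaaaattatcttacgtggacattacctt
HSP17.4: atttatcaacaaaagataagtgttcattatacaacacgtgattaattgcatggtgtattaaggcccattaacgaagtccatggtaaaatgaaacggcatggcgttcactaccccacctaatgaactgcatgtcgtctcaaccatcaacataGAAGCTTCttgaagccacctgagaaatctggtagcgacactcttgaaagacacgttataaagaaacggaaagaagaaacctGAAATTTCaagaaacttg

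HSFA2 illustrates the course of the factors. In primed plants its transcripts stood at 3.65, 540, 138 and 14.1 FPKM at 0, 30, 60 and 120 min, and in control plants at 5.54, 254, 121 and 5.26. Its step was -3.29 in primed and -4.52 in control plants, a difference of 1.22. HSFA7A, a related factor, reached 140 FPKM at 30 min in primed and 54.9 in control plants and was back at 1.95 in P120L and 0.82 in C120L (steps of -4.42 and -5.22). MBF1C, a transcriptional coactivator of heat responses, had 20.4 FPKM in P120L and 193 in P60L, against 8.12 in C120L and 131 in C60L. The sharp rise and fall of all 3 was thus present in both groups, and the level left at 120 min was higher in primed plants. DREB2A, a factor of drought and heat responses, fell by 0.65 in primed and by 2.29 in control plants. Of 13 factors and co-regulators 7 fell in primed and 9 in control plants, and 7 had a higher and 1 a lower difference (median 0.67, and 0.26 with 1 FPKM added to every value). The class A1 factors, which are present before stress, did not pass 1.5-fold: HSF1 had steps of -0.26 and -0.40, HSFA1D of 0.04 and -0.12, and HSF3 of 0.31 and 0.41 in primed and control plants. HSF4, a class B factor known as HSFB1, went the other way and fell further in primed plants (steps of -2.65 and -1.96).

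Of 18 large chaperones 15 fell in primed and 16 in control plants, and 6 had a higher and none a lower difference. HSP101, the cytosolic disaggregase needed for acquired thermotolerance, had 3.37, 318, 368 and 27.9 FPKM at 0, 30, 60 and 120 min in primed plants, and 4.31, 146, 324 and 7.76 in control plants. At 60 min both groups were close, and at 120 min P120L held more than C120L. Its steps were -3.72 and -5.38. Hsp70b, an inducible Hsp70, showed the largest difference of the list, 2.42: P120L had 50.5 and P60L 137 FPKM, against 8.28 in C120L and 120 in C60L. BAG6, a calmodulin-binding co-chaperone, had the lowest mean of both steps of all genes named by size (-4.35 in primed and -5.50 in control plants). HSP90.1, the inducible cytosolic HSP90, fell by 2.45 in primed and 3.66 in control plants. The organellar and constitutive members that follow differed less than those named above. The mitochondrial disaggregase CLPB4 had steps of -3.19 and -3.28 and the chloroplast one, CLPB3, of -0.70 and -1.26. The difference of CLPB3 was still above the list median of 0.24. HSC70-1, a constitutive Hsp70, kept 1443 FPKM in P120L and 2017 in P60L, against 1489 in C120L and 1855 in C60L, which is inside 1.5-fold in both groups.

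The small heat shock proteins, which hold unfolded proteins for refolding, were split in primed plants. Of 15 members 2 rose and 8 fell there, whereas 14 fell and none rose in control plants, and 8 had a higher and 1 a lower difference (median 0.63, and 0.51 after median-of-ratios scaling). HSP18.2, a cytosolic member, had 2.04, 23.2, 67.8 and 135 FPKM at 0, 30, 60 and 120 min in primed plants, and 2.81, 8.78, 48.5 and 28.0 in control plants. ATHSP22.0, an endomembrane member, had 85.1 FPKM in P120L and 52.1 in P60L, against 15.1 in C120L and 39.6 in C60L. Both rose in primed and fell in control plants, with differences of 1.79 and 2.1. HSP21, the chloroplast member, was listed at 0 before triggering in both groups. It had 33.8 FPKM in P120L and 26.0 in P60L, against 6.87 in C120L and 19.5 in C60L, which is a step of 0.38 in primed and -1.51 in control plants. HSP17.4, whose promoter is shown above, had 366 FPKM in P120L and 358 in P60L, against 141 in C120L and 190 in C60L, and did not pass 1.5-fold in either group. AT1G52560 had the largest difference, 2.53, from 8.57 and 18.4 FPKM in P120L and P60L, against 0.92 and 11.4 in C120L and C60L. AT4G21870, a weak member, was the exception with a difference of -1.10. The fast members AT1G59860 and AT5G37670 fell in both groups (-3.97 and -5.39, and -3.51 and -3.31). The cytosolic HSP20 genes resemble each other in sequence, and how reads shared between them were assigned is not settled by the sources used here.

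**Figure D2:**
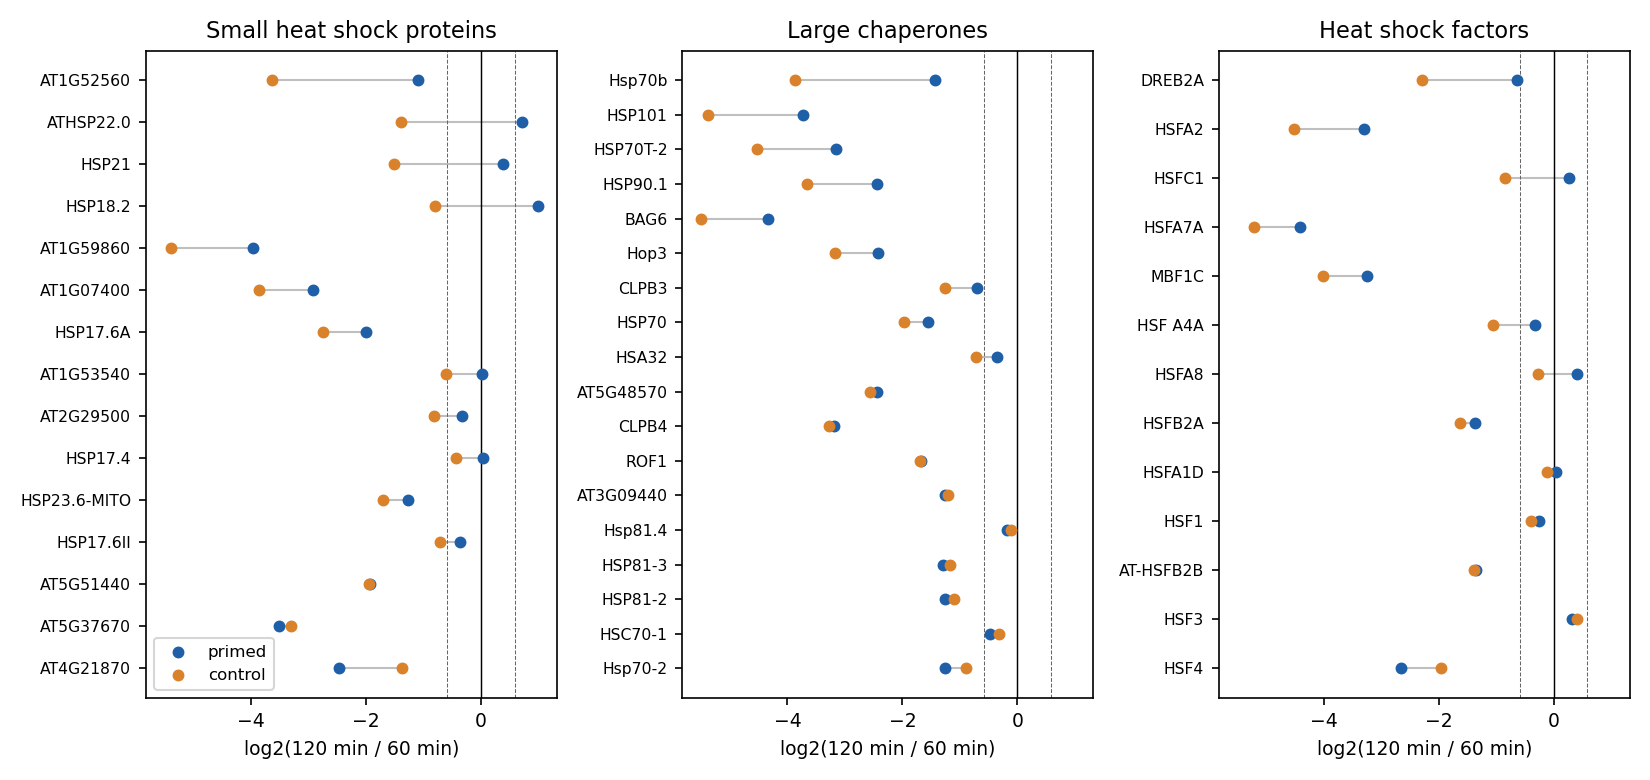
Steps (log2 of 120 over 60 min) of the measured members of the 3 heat lists in primed and control plants, 1 panel per list, members sorted by the difference of steps. In control plants 39 of the 46 members fell past 1.5-fold, against 30 in primed plants, and HSP18.2 and ATHSP22.0 lie on opposite sides of 0.

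Matches to the heat shock element were counted in all promoters. Within 250 bases before to 50 after the start, on either strand, GAANNTTC occurred in 19.7% of the genes that fell in both groups, 8.80% of those that rose in both and 11.3% of all genes with a promoter window. An extended heat shock element, which contains GAANNTTC, was present in 3.16%, 0.352% and 0.624% of the same sets. The shares with GAANNTTC were 12.98% and 10.3% for genes with a higher and a lower difference of steps. Of the 33 small and large heat shock proteins 10 had a match to GAANNTTC. A match describes letters in the window and says nothing of binding.

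The largest shared falls outside the lists included further co-chaperones. Of the 12 with the largest mean fall, 6 were members of the heat lists (BAG6, AT1G59860, HSP101, HSFA2, HSP70T-2 and MBF1C). AT2G20560, AT1G71000 and ATERDJ3A are annotated as DnaJ-type co-chaperones, and the others were AT3G10020, AT5G25450 and the non-coding AT5G01815. AT2G20560 had 15.4 FPKM in P120L and 259 in P60L, against 7.54 in C120L and 177 in C60L. AT1G71000 had 14.8 and 105 FPKM, against 2.94 and 85.3, with steps of -2.83 and -4.86. Over all 728 genes that fell in both groups the median step was -1.03 in primed and -1.20 in control plants. In primed plants 283 of them ended within 1.5-fold of P0, 317 below and 127 above it, and in control plants 241 ended within 1.5-fold of C0, 376 below and 108 above. Of all 46 members of the heat lists, whether they fell or not, 25 were past 1.5-fold above the start in primed and 24 in control plants. Members at 0 before triggering, such as ATHSP22.0 and HSP21, have no such ratio and are not in these counts.

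Touch-responsive genes and most early stress factors also fell. All 6 members of the touch list fell in both, with medians of -1.996 in primed and -2.08 in control plants. TCH2, a calmodulin-like calcium sensor, had 21.6 FPKM in P120L and 86.5 in P60L, against 17.5 in C120L and 87.4 in C60L, so that both groups were nearly alike. CML38, another calmodulin-like protein, had 3.67 and 22.4 FPKM, against 13.01 and 51.8. TCH4, a cell-wall xyloglucan enzyme, fell by 1.16 in primed and by 2.17 in control plants. Of 26 early stress transcription factors 4 rose and 16 fell in primed plants, and 1 rose and 20 fell in control plants. Here 5 had a higher and 1 a lower difference, with a median of 0.40. RRTF1, an ethylene-response-type factor of redox stress, fell furthest, to 0.48 FPKM in P120L against 9.23 in P60L, and to 1.3 in C120L against 15.3 in C60L. WRKY18, a WRKY factor of defence, had 11.7 FPKM in P120L and 61.4 in P60L, against 16.7 in C120L and 97.6 in C60L. SZF1, a zinc finger protein, had steps of -2.39 and -2.87. At 60 min 19 of the 26 were lower in primed plants past 1.5-fold and none was higher, while at 120 min 6 were lower and 1 higher. RAV1 was among the 4 that rose in primed plants, with 13.3 FPKM in P120L and 6.15 in P60L, against 10.8 in C120L and 8.91 in C60L (difference 0.83). ERF5 rose by 0.78 in primed and fell by 0.64 in control plants, at no more than 2.13 FPKM in these libraries.

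Many genes that were higher at 30 min fell in the step. In primed plants 1266 genes were higher at 30 min than at the start (8.4%) and 1076 lower (7.14%), and in control plants 648 were higher (4.3%) and 1039 lower (6.9%). These ratios share no library with the steps. Of the genes higher at 30 min, 416 of 1266 fell in the primed step (32.9%) and 280 of 648 in the control step (43.2%), against 6.41% and 12.2% of all genes. Others rose in the step, 158 in primed (12.48%) and 84 in control plants (12.96%), against 7.53% and 8.72% of all genes. Whether they also rose between 30 and 60 min was not counted. LTP4, for example, had 20.23 FPKM in P30L, 8.08 in P60L and 27.13 in P120L. Of the genes lower at 30 min, 192 of 1076 rose (17.8%) and 126 fell (11.7%) in the primed step, and 182 of 1039 rose (17.5%) and 250 fell (24.1%) in the control step, so that both directions were above their shares of all genes (7.53% and 6.41%, and 8.72% and 12.2%).

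**Figure D3:**
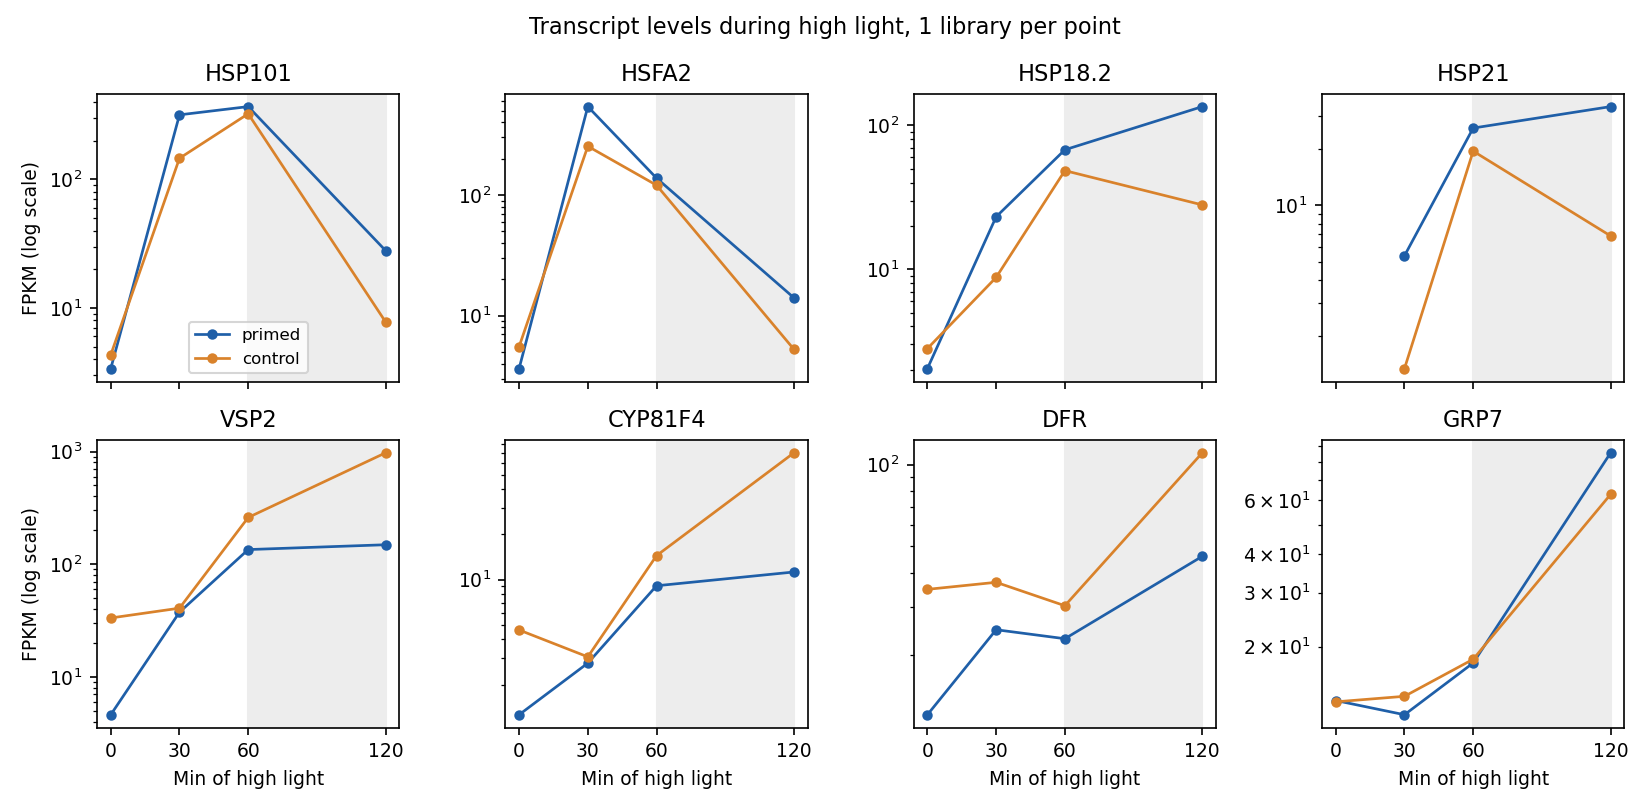
Transcript levels of 8 genes over high-light triggering (FPKM on a log axis, against 0, 30, 60 and 120 min) in primed and control plants, with the span of 60 to 120 min shaded; values of 0 are not drawn. HSP101 and HSFA2 fell in both groups, HSP18.2 rose in primed and fell in control plants, HSP21 kept its level in primed plants, VSP2 and CYP81F4 rose in control plants alone, DFR rose further in control plants, and GRP7 rose in both.

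Between 60 and 120 min jasmonate-responsive defence genes rose in control plants and far less in primed plants. Of 11 measured members 5 rose in primed and 10 in control plants, none fell, and 7 had a lower and 1 a higher difference. The median step was 0.47 in primed and 1.61 in control plants and the median difference -0.87. VSP2, a vegetative storage protein and classical jasmonate marker, had 4.61, 37.5, 135 and 149 FPKM at 0, 30, 60 and 120 min in primed plants, and 33.3, 40.7, 260 and 975 in control plants. Levels of VSP2 in primed plants were thus lower at every time, including before triggering. Over the list the median log2 ratio of primed to control plants was -1.81 at the start, -0.96 at 60 min and -2.42 at 120 min. At 120 min 6 members were past 1.5-fold above their start in primed and 5 in control plants. VSP1 had 63.9 FPKM in P120L and 51.4 in P60L, against 514 in C120L and 123 in C60L (steps of 0.31 and 2.06). NATA1, an acetyltransferase that makes the defence compound N-acetylornithine, rose in both groups, with 56.2 FPKM in P120L and 28.6 in P60L, against 302 in C120L and 63.5 in C60L. TAT3, a tyrosine aminotransferase, had steps of 0.12 and 1.61, and the chlorophyllase CLH1 of -0.28 and 0.77. At 120 min 9 of the 11 were lower in primed plants past 1.5-fold and at 60 min 8 were. The exception with a higher difference, the defensin PDF1.2b, had 0.23 FPKM in P120L and 0.06 in P60L and is nearly identical to PDF1.2 and PDF1.2c, so that their reads may be shared.

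The genes that make and sense jasmonate were split. Of 17 biosynthesis genes none rose and 4 fell in primed plants, and 4 rose and 4 fell in control plants, with 6 lower and 2 higher differences (median -0.37). LOX2, the chloroplast lipoxygenase of the pathway, had 736 FPKM in P120L and 640 in P60L, against 2048 in C120L and 1005 in C60L. AOC2, an allene oxide cyclase, had 238 and 221 FPKM, against 681 and 368, and OPR3, the peroxisomal reductase, had 201 and 386 FPKM, against 564 and 623. LOX2 and AOC2 rose in control plants alone and OPR3 fell in primed plants alone. LOX3 and LOX4, further lipoxygenases, fell in both groups (-1.47 and -1.10, and -1.97 and -1.68). JAR1, which conjugates jasmonate to isoleucine, was among those with a higher difference (steps of -0.06 in primed and -0.82 in control plants). AOC1, AOC2 and AOC3 are close neighbours of similar sequence. Among 20 signalling genes 9 fell in primed and 5 in control plants, none rose, and 5 had a lower and none a higher difference. The repressor JAZ10 had 13.8 FPKM in P120L and 25.7 in P60L, against 87.2 in C120L and 60.4 in C60L (steps of -0.90 and 0.53), and JAZ7 and JAZ8 fell in both groups and further in primed plants. The receptor COI1 had steps of 0.03 and -0.28 and MYC2 of -0.08 and 0.09. Of 7 turnover genes, the sulfotransferase ST2A rose in both groups (129 and 46.2 FPKM in P120L and P60L, against 243 and 58.1 in C120L and C60L), and the amidohydrolases IAR3 and ILL6 had lower differences (-0.83 and -0.74).

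Flavonoid genes rose about as often in primed as in control plants, and late anthocyanin genes rose further in control plants. Of 23 flavonoid genes 12 rose in primed and 11 in control plants, 11 of them in both, and 1 fell in each, with median steps of 0.61 and 0.54. The difference was lower for 7 and higher for 1, with a median of -0.27. DFR, dihydroflavonol reductase, had 12.04, 24.7, 22.9 and 46.0 FPKM at 0, 30, 60 and 120 min in primed plants, and 34.8, 36.9, 30.3 and 110 in control plants. LDOX, the next enzyme, had 48.8 FPKM in P120L and 23.4 in P60L, against 115 in C120L and 29.1 in C60L. The glycosyltransferase UF3GT, the acyltransferase AT5MAT, the transport protein GSTF12, the flavonoid hydroxylase TT7 and the basic helix-loop-helix regulator TT8 behaved alike, with primed steps of 0.88 to 1.15 and control steps of 1.81 to 2.14. The MYB regulator PAP1 rose by 0.89 in primed and 1.16 in control plants. Early enzymes moved less: TT4, chalcone synthase, had steps of 0.01 and 0.34 and F3H of 0.06 and 0.41. The gene that fell in both groups was MYB111, a flavonol regulator, and 4CL1, an upstream ligase, had the higher difference (0.68). The primed list median of 0.61 dropped to 0.51 after median-of-ratios scaling, below 1.5-fold.

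Glucosinolate genes differed by branch. Of 18 genes of aliphatic glucosinolates 13 rose in primed plants and 1 rose and 1 fell in control plants. The median step was 0.68 in primed and 0.32 in control plants, and 4 had a higher and none a lower difference. The primed median lay close to 1.5-fold. Median-of-ratios scaling moved the median primed step of all genes by -0.097, so the count of 13 may depend on the scaling. All 18 differences were above 0, with a median of 0.26 against 0.11 for all genes, but those of BCAT4 (0.06) and SUR1 (0.07) were smaller than the shift of 0.12 that median-of-ratios scaling takes off. The single primed/control ratios at 60 and 120 min were all inside 1.5-fold. Over the list the median log2 ratio of primed to control plants was -0.47 at the start, -0.28 at 60 min and 0.11 at 120 min. The medians of all genes were -0.05, -0.05 and 0.08. By these medians primed plants started lower and were near control plants at 120 min. MYB28, the main regulator of this branch, had 48.0 FPKM in P120L and 22.9 in P60L, against 34.1 in C120L and 28.6 in C60L. CYP79F1, which starts the core pathway, had 105 and 54.6 FPKM, against 96.7 and 68.8, and IPMI1, of side-chain elongation, had 104 and 55.4 FPKM, against 87.4 and 73.2. The indolic branch and tryptophan synthesis were mixed. Of 18 genes 2 rose and 2 fell in primed plants, 8 rose and 3 fell in control plants, and 3 had a higher and 4 a lower difference. CYP81F4, which modifies indolic glucosinolates, had 11.2 FPKM in P120L and 9.10 in P60L, against 69.9 in C120L and 14.4 in C60L, a difference of -1.97. CYP79B2, which starts the branch from tryptophan, had steps of 0.39 and 0.99, and DHS1, the entry enzyme of the shikimate pathway, of 0.59 and 1.27.

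Salicylate genes were mixed. Of 22 genes 5 rose and 6 fell in primed and 9 rose and 7 fell in control plants, with 1 higher and 5 lower differences. PR1, a marker of salicylate-dependent defence, had 6.04, 53.5, 4.47 and 2.99 FPKM at 0, 30, 60 and 120 min in primed plants, and 5.65, 1.47, 3.96 and 14.4 in control plants. In the light course its highest value was that of P30L, and the cold-triggered primed library of 60 min (P60C) had 28.2 FPKM. In the 4 libraries of the step PR1 stayed at or below 14.4 FPKM. BGL2, a glucanase also known as PR2, rose by 1.37 in control plants and had a step of 0.54 in primed plants. The regulator CBP60G fell in both groups (-1.96 and -2.19).

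Abscisic acid, starch and wax genes were mixed. For the counts of this paragraph, 7.53% of all genes rose and 6.41% fell in primed plants, and 8.72% rose and 12.2% fell in control plants. A higher difference was found for 10.2% and a lower one for 4.0% of all genes, with a median of 0.11. Of 24 genes of abscisic acid 8 rose and 4 fell in primed plants and 5 rose and 4 fell in control plants. Of these 24 genes 7 had a higher and 4 a lower difference (median 0.47). Of the phosphatases that restrain abscisic acid signalling, HAI2 and PP2CA rose in both groups and further in primed plants. HAI2 had 9.98 FPKM in P120L and 1.72 in P60L, against 6.44 in C120L and 2.74 in C60L, and PP2CA 63.8 and 21.2 FPKM, against 48.4 and 27.6. CYP707A3, which degrades the hormone, fell to 1.00 FPKM in P120L against 3.65 in P60L, and to 0.40 in C120L against 6.53 in C60L. RAB18, a dehydrin, was among the 4 with a lower difference, with 42.5 and 61.4 FPKM in P120L and P60L, against 57.1 and 28.6 in C120L and C60L (difference -1.53). Of 16 genes of proline, galactinol and starch 6 rose and 3 fell in primed and 5 rose and 3 fell in control plants, and 5 had a higher and 1 a lower difference. Among genes of starch breakdown, SEX1, the glucan water dikinase, had 87.8 FPKM in P120L and 40.0 in P60L, against 58.8 in C120L and 55.6 in C60L, and PWD, the kinase acting after it, had 12.7 and 5.82 FPKM, against 8.69 and 7.72. Both rose in primed plants alone, whereas the beta-amylase BAM5 rose in both groups and stood at 121 FPKM in P120L and 281 in C120L. Of 10 wax genes 2 rose and 1 fell in primed and 4 fell in control plants, and 3 had a higher difference. CER4, an alcohol-forming fatty acyl reductase, rose by 0.84 in primed and fell by 1.08 in control plants, with 6.24 FPKM in P120L and 3.49 in P60L, against 1.77 in C120L and 3.73 in C60L.

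**Figure D4:**
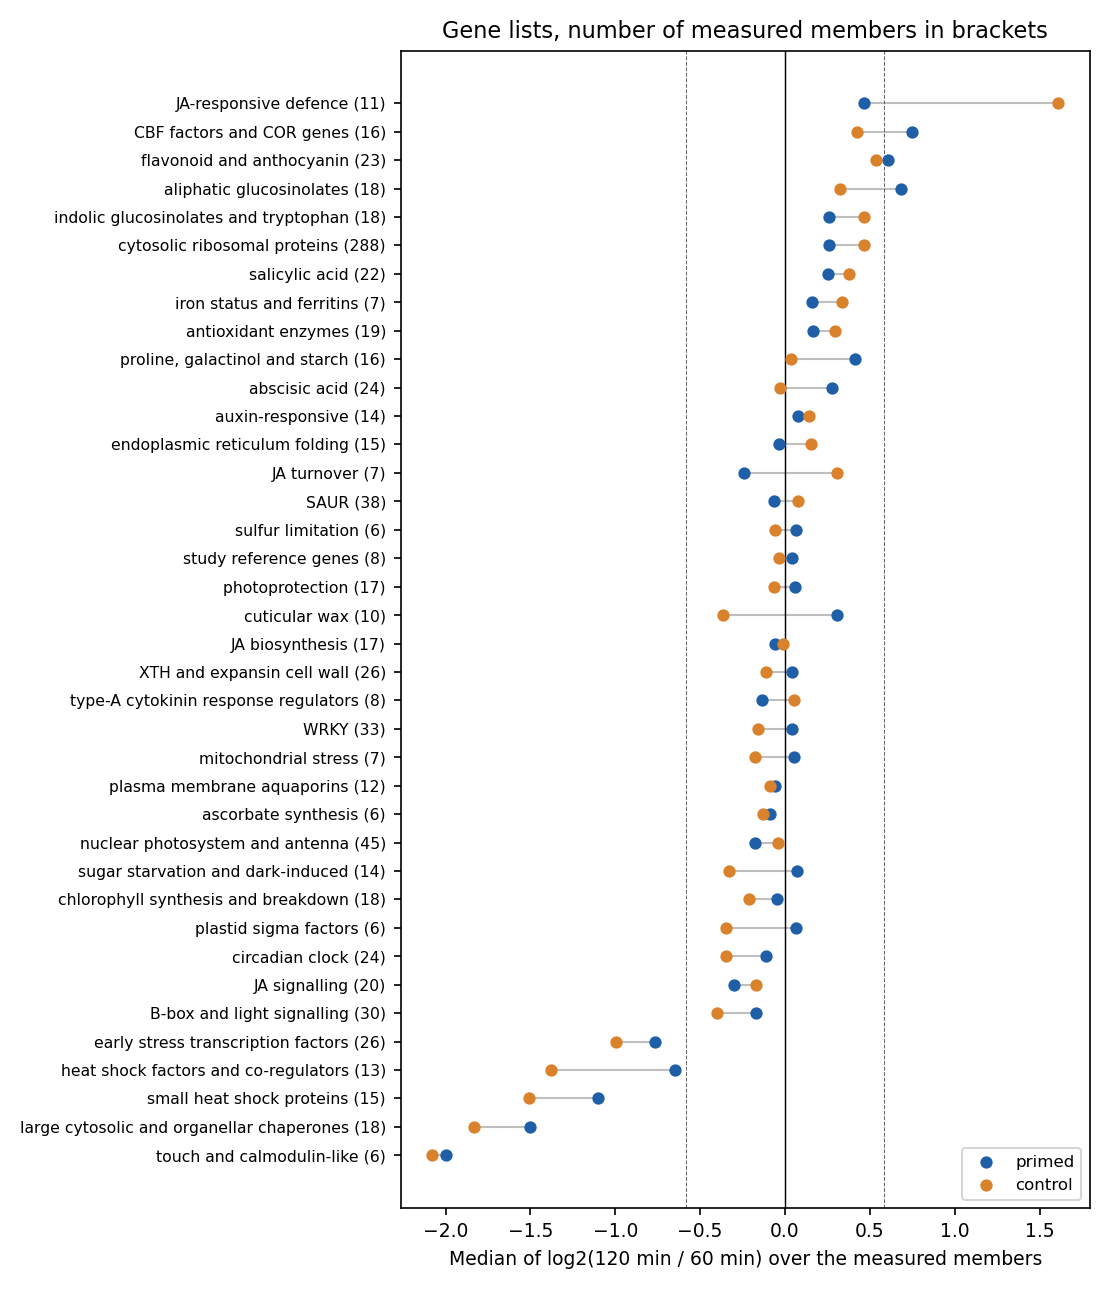
Median step (log2 of 120 over 60 min) of each gene list with at least 6 measured members, in primed and control plants. The touch, large chaperone and small heat shock protein lists lie lowest in both groups, and the jasmonate-defence list has the largest gap in the opposite direction, 0.47 in primed and 1.61 in control plants.

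Most CBF and COR genes rose in primed plants and fewer in control plants. Of 16 CBF and COR genes 11 rose and 1 fell in primed plants and 7 rose and 1 fell in control plants, with medians of 0.75 and 0.43, and 4 had a higher and 1 a lower difference. DREB1A, also called CBF3, had the largest mean rise of the genes named by size, with 2.01, 4.25, 1.63 and 22.4 FPKM at 0, 30, 60 and 120 min in primed plants, and 0.68, 3.32, 3.41 and 21.4 in control plants. Its levels at 120 min were nearly equal, and those at 60 min were lower in primed plants. CBF2 had 6.93 FPKM in P120L and 1.92 in P60L, against 5.28 in C120L and 4.17 in C60L, and rose in primed plants alone. Among the target genes, COR15A, a chloroplast protein of freezing protection, had 3366 FPKM in P120L and 1621 in P60L, against 3148 in C120L and 1329 in C60L. GolS3, a galactinol synthase, had 139 and 89.3 FPKM, against 55.9 and 80.9. LTI78, a stress protein known as RD29A, had 920 and 319 FPKM, against 578 and 381. LTI78 was counted in the abscisic acid list and not among these 16 genes. DDF1, a CBF relative, was the member that fell, to 0.12 FPKM in P120L and 0.27 in C120L (steps of -4.96 and -4.03).

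Of 24 clock genes 6 rose and 7 fell in primed and 4 rose and 8 fell in control plants, and 2 had a higher difference. Among all genes 7.53% rose and 6.41% fell in primed plants, and 8.72% rose and 12.2% fell in control plants. A higher difference was found for 10.2% of all genes, so it was no more frequent among clock genes. The morning factors CCA1 and LHY fell in both groups: LHY had 11.7 FPKM in P120L and 30.8 in P60L, against 12.8 in C120L and 36.0 in C60L. PRR5, a later repressor, rose by 2.34 in primed and 2.1 in control plants. GRP7, an RNA-binding protein of a clock output loop, had 13.4, 12.01, 17.7 and 85.6 FPKM at 0, 30, 60 and 120 min in primed plants, and 13.2, 13.8, 18.21 and 62.7 in control plants. Its relative CCR1, also known as GRP8, had 121 FPKM in P120L and 59.1 in P60L, against 109 in C120L and 69.9 in C60L. These rises appeared between 60 and 120 min, since both genes stayed within 1.5-fold of their start at 60 min.

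The promoters of the clock-list genes GRP7 and CCR1 and of LTI78, from the abscisic acid list, are shown because they hold the elements marked below. GRP7 lies at chr2:9266558-9266807 (minus), CCR1 at chr4:18275217-18275466 (minus) and LTI78 at chr5:21240467-21240716 (plus). Capitals mark the evening element, AAAATATCT or its reverse complement, in GRP7 and CCR1, and the CRT/DRE core, CCGAC, in LTI78.
GRP7: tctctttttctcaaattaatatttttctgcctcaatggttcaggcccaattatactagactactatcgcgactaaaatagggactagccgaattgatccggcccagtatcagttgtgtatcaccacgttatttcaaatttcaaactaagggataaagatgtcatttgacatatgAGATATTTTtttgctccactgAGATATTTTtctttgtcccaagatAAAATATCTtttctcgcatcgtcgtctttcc
CCR1: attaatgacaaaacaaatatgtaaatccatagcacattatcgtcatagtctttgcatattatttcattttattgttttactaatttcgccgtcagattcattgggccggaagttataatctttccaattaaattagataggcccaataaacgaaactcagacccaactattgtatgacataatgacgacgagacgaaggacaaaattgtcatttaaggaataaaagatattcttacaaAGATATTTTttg
LTI78: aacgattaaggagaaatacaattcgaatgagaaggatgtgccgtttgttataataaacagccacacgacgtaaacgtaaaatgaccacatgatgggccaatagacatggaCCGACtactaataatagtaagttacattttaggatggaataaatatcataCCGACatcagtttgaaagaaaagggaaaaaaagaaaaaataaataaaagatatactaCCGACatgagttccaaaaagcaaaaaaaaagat

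In the same windows and on either strand, the evening element occurred in 8.63% of the genes that rose in both groups, 3.99% of those that fell in both and 3.14% of all genes, and in 8 of the 24 clock genes. The CRT/DRE core was present in 17.43%, 17.9% and 17.1% of the same sets, and 5 of 16 CBF and COR genes had it. The G-box CACGTG was present in 10.4%, 12.9% and 9.32%, and the W-box (TTGACC or TTGACT) in 27.3%, 40.4% and 31.8%, with 13 of the 26 early stress factors carrying a W-box. The telo box AAACCCTAA occurred in 8.80%, 1.51% and 3.25%, and in 62 of 288 genes listed as cytosolic ribosomal proteins by their product names.

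The cold-triggered plants allowed a look at the same hour of the day under another treatment. The cold step is log2 of 120 over 60 min at 4 °C, and shares no library with the light step. In the cold step 505 genes rose (3.35%) and 808 fell (5.36%) in primed plants, and 625 rose (4.15%) and 736 fell (4.89%) in control plants. Of the 568 genes that rose in both light steps 109 also rose in both cold steps (19.2%, against 2.51% of all genes), and of the 728 that fell 161 fell in both cold steps (22.1%, against 2.71%). In the cold step of each group 13 of 16 CBF and COR genes and 10 of 24 clock genes rose. GRP7 had cold steps of 3.14 and 3.34 in primed and control plants. COR27, a cold-regulated gene tied to the clock, stayed at or below 0.22 FPKM in the light step and rose by 5.98 and 5.43 in the cold. Of the 46 heat genes 15 fell there in primed and 16 in control plants. Of the jasmonate-defence genes none rose there, and 10 of 11 fell in primed and 9 of 11 in control plants, and 8 of 23 flavonoid genes fell in control plants.

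**Figure D5:**
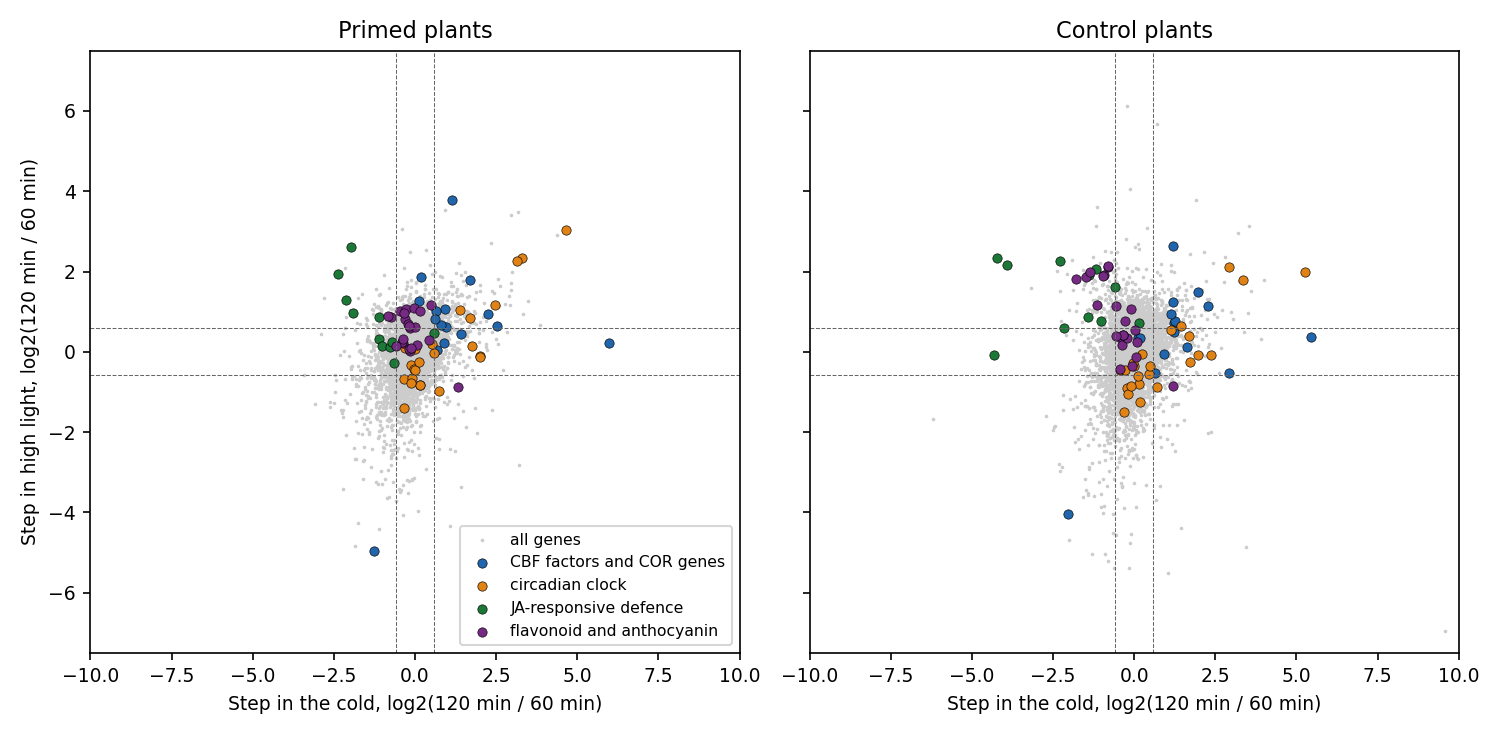
High-light step against cold step of the same hours (both log2 of 120 over 60 min), primed plants on the left and control plants on the right, with gene lists coloured. Of the 16 CBF/COR genes 11 rose in the light step of primed and 7 in that of control plants, and 13 in each cold step, whereas of the 11 jasmonate-defence genes 5 rose in the light step of primed and 10 in that of control plants, and 10 and 9 fell in their cold steps.

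More genes listed as cytosolic ribosomal proteins rose in control than in primed plants. The list took gene products named as ribosomal proteins and not marked as plastid or mitochondrial. Organellar members with plain names may therefore be included. Of its 288 measured genes 13 rose and 1 fell in primed plants and 76 rose and none fell in control plants. Their median steps were 0.26 and 0.46. None had a higher and 10 a lower difference (median -0.18). Among all genes 7.53% rose in primed and 8.72% in control plants, and 10.2% had a higher and 4.0% a lower difference. Lower differences were thus about as frequent as among all genes. The 45 nuclear genes of photosystems and antennae had 3 falls in primed and 5 in control plants, with medians of -0.18 and -0.04, and no difference past 1.5-fold. Folding genes of the endoplasmic reticulum, 15 in number, had 2 falls in primed plants, 1 rise and 2 falls in control plants, and no difference past 1.5-fold.

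Of genes outside these lists, the rise in both groups was led by AT1G69140, a transcribed pseudogene, by AT4G16146, a phosphoprotein relative, and by AT1G70640, which has a PB1 domain. AT1G69140 had 69.3 FPKM in P120L and 6.53 in P60L, against 28.8 in C120L and 8.48 in C60L. GH3.3, an enzyme that conjugates auxin to amino acids, had 30.7 and 11.8 FPKM, against 30.0 and 5.30. SAG13, a senescence-associated gene, had 11.8 and 4.37 FPKM, against 27.4 and 4.87. It is among 4 measured markers of senescing leaves, of which 3 rose in each group and whose summed level, with SAG12 under the filter, was 25.7 FPKM in P120L and 13.2 in P60L, against 40.6 in C120L and 11.7 in C60L. The lipid transfer protein gene LTP4, the camalexin enzyme gene CYP71A13, AT1G57590 and AT4G34950 complete the 12 genes with the largest mean rise, together with DREB1A, GRP7 and ST2A. Over all 568 genes that rose in both, 449 ended above P0 and 420 above C0 past 1.5-fold.

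Among the genes named by size, the largest higher differences of steps were those of non-coding RNAs and a pseudogene. AT4G06665, a non-coding RNA overlapping the beta-amylase gene CT-BMY on the other strand, had 73.1 FPKM in P120L and 59.1 in P60L, against 16.2 in C120L and 141 in C60L. AT1G07893 and AT2G30362, also non-coding and opposite to annotated genes, had differences of 3.43 and 3.03, and the pseudogene SADHU2-1 of 2.90. Whether reads were counted by strand is not given in the sources used here, so the reads of these RNAs and of their overlapping partners may not be separable. The same limit holds for 16 of the 43 genes named by size, HSP101, MBF1C and DREB1A included. Coding genes with higher differences were the ubiquitin ligase PUB19 (25.3 and 10.9 FPKM in P120L and P60L, against 17.8 and 29.5 in C120L and C60L), the F-box gene AT1G24881 and the kelch repeat gene AFR.

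On the lower side, 3 genes of a lipid-transfer-type cluster on chromosome 4, AT4G22505, AT4G22513 and AT4G22490, were lowest in C60L among the light libraries. AT4G22505 had 15.2, 7.79, 10.3 and 6.95 FPKM at 0, 30, 60 and 120 min in primed plants, and 19.2, 10.12, 2.26 and 12.6 in control plants. These neighbours resemble each other and count as 1 observation. LEA7 and AT3G02480, both late embryogenesis abundant proteins, had 5.32 and 6.51 FPKM in P120L and 7.88 and 7.03 in P60L, against 17.2 and 14.4 in C120L and 3.19 and 2.55 in C60L. MDHAR, a monodehydroascorbate reductase of ascorbate recycling, had 6.48 and 7.41 FPKM in P120L and P60L, against 57.4 and 14.4 in C120L and C60L. PGL5, of the oxidative pentose phosphate pathway, had 9.25 and 12.6 FPKM, against 80.0 and 23.61, and the lipase-type gene AT1G54010 had 19.8 and 26.8 FPKM, against 98.3 and 29.6. In these 3 genes C120L was the high library, and both primed libraries and C60L lay below it. Levels of 0 gave no ratio for the non-coding AT2G07495, at 3.09 FPKM in P120L and 1.5 in P60L, against 14.9 in C120L and 0 in C60L, and for AT4G08575, at 4.82 and 2.94 FPKM, against 6.65 and 0.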

How the data were processed

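RNA-seq of pooled rosettes was analysed for the 4 high-light libraries of 60 and 120 min, with the other 10 of the 14 libraries for the filter, the earlier times and the cold step. Per the labels, mRNA was enriched with oligo(dT) beads. The authors deposited 1 table of FPKM per gene on the TAIR10 reference. Their methods name Bowtie2 and RSEM, whereas the submitters' processing notes name HISAT2 2.1.0. These FPKM values were used as deposited, without further scaling or pseudocount, and 0 columns belonged to other samples. FPKM set each library to a common total, so a large change of abundant transcripts lowers or raises all others.

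Steps, differences and list medians were computed with Python 3.11.15, NumPy 2.4.6 and pandas 2.3.3, and drawn with matplotlib 3.10.9. Scripts were tested on simulated data. Genes at 0 in a library of a ratio got no ratio. With 1 library per condition no p-value, SD over plants or interval can be given, and the depth of a library limits weak genes most. Sequences, coordinates and gene types came from RefSeq TAIR10.1. All 38 fixed lists and the 7 gene family rules were written, and their members chosen, with earlier results of these data known. Spellings were matched to the annotation once the table was at hand, and 16 of 581 symbols without a match were dropped.

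Genes were named by size as the 12 per direction with the largest mean of both steps, among those past 1.5-fold in both groups, and the 10 per direction with the largest difference. They needed at least 1 FPKM in each of the 4 libraries and 10 in any of them. Of each list up to 6 members with the largest mean absolute step were eligible, with members called in opposite directions, and so were genes listed at 0 at either time and with at least 5 FPKM at the other. Further list members named as contrasts were chosen after their values were seen. Tried besides were calls past 2-fold, 1 FPKM added to every value, a mean level of 10 FPKM or more, all genes regardless of mean, a minimum of 0.5 FPKM in both untriggered libraries, and scaling by the 8 reference genes or by median-of-ratios.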

Additional observations from a re-analysis of the deposited data

Results flagged for a closer look

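Steps in opposite directions in primed and control plants marked 19 genes that rose in primed and fell in control plants and 23 that fell in primed and rose in control plants. None of these differences could be tested, because each rests on 4 single libraries. Among the genes named in the text, the difference of steps (log2, primed minus control) was 3.43 for the non-coding RNA AT1G07893 and 3.03 for AT2G30362. The heat shock genes ATHSP22.0 and HSP18.2 had differences of 2.1 and 1.79. The ubiquitin ligase PUB19 had 1.94, the wax gene CER4 1.91 and the transcription factor ERF5 1.42. The neighbouring lipid-transfer-type genes AT4G22490 and AT4G22513 had differences of -2.83 and -3.04. Of these genes HSP18.2 and ATHSP22.0 reached the highest levels, 135 and 85.1 FPKM in P120L, whereas ERF5 stayed at or below 2.13 FPKM in all 4 libraries.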

How the results depend on the processing

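No paired analysis was possible because each condition has 1 library. A 2-fold threshold left 263 rises and 424 falls in primed plants, 395 and 642 in control plants, 257 higher and 205 lower differences, and 114 shared rises and 323 shared falls. Of the genes higher at 30 min 27.2% then fell in the primed step, and 29.0% of the shared rises and 12.1% of the shared falls recurred in the cold. A mean of at least 10 FPKM gave 429 and 490 calls in primed plants, 600 and 815 in control plants, 470 higher and 244 lower differences, 224 shared rises and 386 shared falls, and shares of 36.6% and 47.4% of the genes higher at 30 min that fell in primed and control plants. Without a filter on the mean these were 2648 and 2022, 2819 and 3200, 3355 and 2040, 1133 and 1151, and 29.8% and 36.3%, with 14.8% and 18.9% recurring in the cold. A pseudocount of 1 FPKM gave 961 higher differences, and 18.1% of the shared falls recurred in the cold. Median-of-ratios scaling gave 927 higher and 936 lower differences, 36.3% of the genes higher at 30 min fell in primed plants, and 23.2% of the shared rises recurred in the cold. Scaling to the reference genes gave 36.6% for the primed fall.

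No list median or gene named by size that was past 1.5-fold changed sign under these 7 alternatives; medians nearer 0 can change sign with the scaling. List medians kept their side of 1.5-fold in 895 cases, and 20 lost and 9 gained it. Named genes kept it in 823 cases, and 9 lost and 8 gained it. The small heat shock protein difference was 0.51 under median-of-ratios scaling, 0.43 with a minimum of 0.5 FPKM in both untriggered libraries, and its primed median -0.36 at a mean of at least 10 FPKM. The difference of heat shock factors was 0.26 with the pseudocount. The cause was not tested. Single libraries, unequal depth of C120L and time of day limit every value, and genes under a few FPKM most.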

Other observations

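Further gene groups moved little or in part. Of 19 antioxidant enzymes none changed in primed plants and 2 rose in control plants, and of 17 photoprotection genes 2 rose and 1 fell in primed and 3 rose and 1 fell in control plants. Of 30 B-box and light signalling genes 8 fell in primed and 9 in control plants, 6 of them in both, and 1 rose in each. Of 33 WRKY genes 2 rose and 9 fell in primed and 4 rose and 12 fell in control plants, 9 of them falling in both, with medians of 0.04 and -0.16. Sugar starvation genes had 6 higher and 1 lower difference among 14 members (median 0.40), against 10.2% and 4.0% of all genes (median 0.11). Of 26 genes of xyloglucan enzymes and expansins, which loosen cell walls, 7 rose and 6 fell in primed and 4 rose and 9 fell in control plants.

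Single values stood out and were chosen after the data were seen. AT2G08665 had 63.5 FPKM in P120L and 45.4 in P60L, against 0.11 in C120L and 13.7 in C60L. LpxC4 had 12.3 and 11.3 FPKM in P120L and P60L, against 9.01 in C120L and 0.13 in C60L. These were the most extreme control steps of all genes (-6.96 and 6.12). The plastid-encoded ATCG00920 and ATCG01210 were listed with the same values, 90.41 FPKM in P120L and 65.2 in P60L, against 198 in C120L and 68.3 in C60L. Libraries made from oligo(dT)-selected RNA capture plastid transcripts in part, and these values are given without a reading.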
